A study of Mus musculus with 55 samples.

Results

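The mice described here are the control mice of the study, called unstressed because they were in neither defeated group. Of them, 9 were housed in an enriched environment (EE control) and 10 in standard housing (SH control). They were found by the titles of the deposited samples and make up 19 of the 54 mice of the series, the others being mice that were resilient (RES) or susceptible (SUS) after chronic social defeat stress (CSDS). All were C57BL/6J males, placed in SH or EE at 21 days of age and kept there for 8 weeks before the period in which the defeated mice met CSDS for 10 days, and the ventral dentate gyrus was punched out at about postnatal day 90. EE cages held 12 mice with tunnels, objects and running wheels, and SH cages held 3 mice, so company, space, novelty and running differed together and cannot be told apart. No mouse carried a transgene or received a drug, and tissue was not pooled. The labels give neither the cage nor the date of extraction of a mouse, so the tests treat cage mates as independent and a batch that went with housing cannot be told apart from housing.

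The dentate gyrus is the entry station of the hippocampus. Its granule cells receive the perforant path, send mossy fibres to CA3 and are among the few neurons still born in adult rodents. Its ventral end is tied to anxiety and stress responses. Enrichment is known in rodents for raising the survival of new granule cells and for effects on neurotrophins, growth factors and activity-dependent genes. Whether it left a mark on the resting transcriptome, without social defeat, is the question that the comparison of EE control with SH control mice addresses.

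RNA was sequenced in bulk, and the values are counts of read pairs per gene on the transcribed strand. The 20 libraries of the control mice held 32223034 to 49990637 read pairs, of which 16760009 to 24067110 were counted on genes. The 2 libraries of EE control mouse 9 differed by no more than counting noise would give (chi-square per degree of freedom of 1.08, against 7.56 or more with any other EE control mouse) and were summed as 1 mouse. Levels are given in CPM, the count scaled to the size of the library, as the lowest, median and highest mouse of a group, and differences as log2 fold changes, EE minus SH, with their standard error. Adjusted p-values are from the quasi-likelihood test of edgeR, adjusted by the method of Benjamini and Hochberg over the 18283 genes that passed the filter on low counts. Fewer cells of a type and less RNA per cell cannot be told apart in bulk tissue.

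Granule cell markers were abundant in both groups. Prox1, the transcription factor that sets granule cell identity, was at 96.5, 147 and 184 CPM in SH control and 79.6, 152 and 210 CPM in EE control mice. Calb1, the calcium buffer calbindin of mature granule cells, was at 220, 291 and 332 CPM in SH and 172, 269 and 329 CPM in EE mice. The desmosomal gene Dsp was at 106, 123 and 167 CPM in SH and 65.9, 109 and 159 CPM in EE mice. The groups overlapped on each of these, and the 16 mature granule cell genes had a median log2 difference of 0.00. Neighbouring tissue varied between single mice: 11 thalamic genes summed to between 200 and 665 CPM in SH and between 227 and 443 CPM in EE mice, and choroid plexus genes stood far above the rest in SH control mouse 3 (1619 CPM summed) and EE control mouse 9 (657 CPM), against at most 180 CPM in the other 17 mice.

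Housing alone separated very few genes in unstressed mice. At an adjusted p below 0.05, 1 of 18283 genes (0.00547%) passed, the opioid precursor gene Penk, which rose in EE. Without adjustment, 917 genes (5.02%) had p below 0.05, where 914 would be expected if no gene differed, 489 of them higher (2.67%) and 428 lower (2.34%) in EE. No gene had CPM ranges of the 2 groups that did not overlap (0 of 18283). The criterion that the study used for differentially expressed genes (DEGs), limma-voom p below 0.05 with a fold change above 1.3 and no adjustment, took in 204 genes (1.12%), of which 156 were higher (0.853%) and 48 lower (0.263%) in EE. Most of these 204 were weakly expressed: 108 of the 156 and 38 of the 48 had a mean level below 1 CPM, against 16.7% of all genes tested, and only 7 of them exceeded 10 CPM. Of the 156 genes, 76 (48.7%) were protein-coding, against 79.3% of all genes tested.

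**Figure D1:**
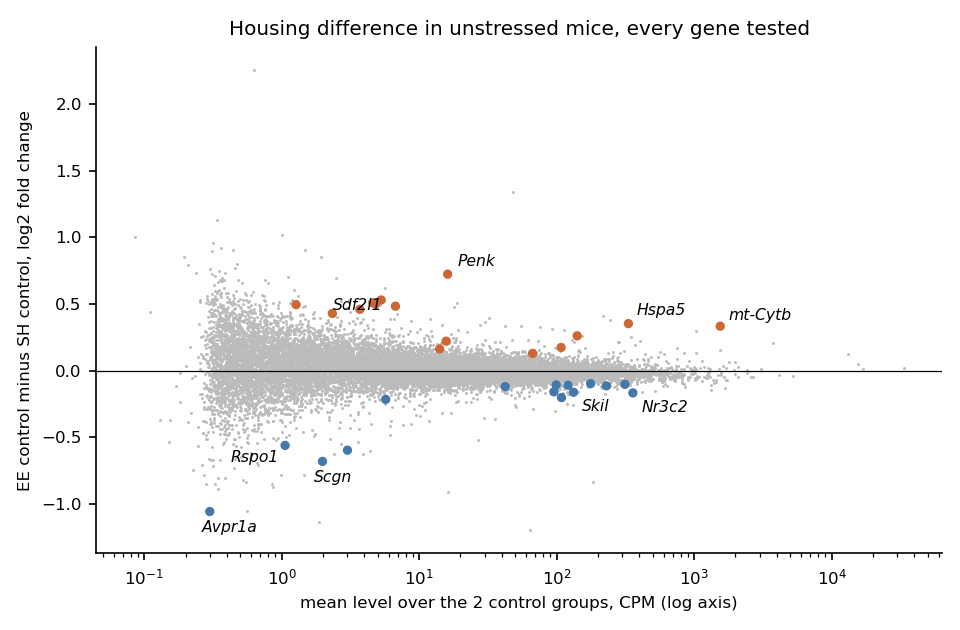
Mean level over both control groups (x axis, CPM, log scale) against the EE control minus SH control log2 fold change (y axis) for the 18283 genes tested, with the 15 leading genes in each direction in orange (higher in EE) and blue (lower in EE). Among the coloured genes Penk alone passed the adjusted test, and those above 10 CPM apart from Penk lay between -0.20 and 0.35.

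Penk encodes proenkephalin, from which the enkephalin peptides are cut, and lies at chr4:4133531-4138819 (GRCm38, minus strand). Its level was 9.57, 12.1 and 17.3 CPM in the 10 SH control mice and 15.6, 21.3 and 24.9 CPM in the 9 EE control mice. All 9 EE mice exceeded the SH median and 6 exceeded every SH mouse, with overlap limited to SH control mouse 10 at the top of its group. The difference was 0.72 ± 0.10 (SE, adjusted p = 4.57e-05, edgeR's quasi-likelihood test), a fold of 1.65. Penk passed in every alternative fit that was run, with log2 values of 0.68 to 0.79 when any 1 mouse was left out. Its adjusted p was 0.0088 (edgeR) in the fit of the 19 control mice alone, where the defeated mice did not enter the estimate of spread. Its companion precursor Pdyn, the source of dynorphins, was at a median of 30.03 CPM in SH and 28.7 CPM in EE mice (log2 -0.16 ± 0.11). Because Penk is also abundant in striatal neurons, striatal genes were set beside it: Drd1, a dopamine receptor, had a log2 value of 0.43 ± 0.17 (adjusted p = 0.864, edgeR) and Adora2a, an adenosine receptor of the enkephalin-containing striatal neurons, was at no more than 1.46 CPM in any control mouse (0.34 ± 0.21). Of the 12 striatal medium spiny neuron genes, Penk among them, 8 lay above 0, against 51.3% of all genes, with a median of 0.03. Penk and Drd1 had an unadjusted p below 0.05 (16.7% of the list, against 5.02% of all genes). Drd1 and Penk ranked the EE mice alike in part. EE control mice 1, 2, 6, 7 and 9 were above every SH mouse for both genes, and mouse 4 for Penk only. Mice 8 and 5 were next to lowest and lowest of the EE mice for both. For Adora2a only mouse 6 was above every SH mouse, and mouse 5 came next to it. The part of striatal cells in the Penk difference was not tested.

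The next genes in order of p missed the adjusted threshold, some of them narrowly. Skil, a repressor of TGF-beta signalling through SMAD proteins (chr3:31095058-31122577, GRCm38), was at 133, 140 and 151 CPM in SH and 120, 125 and 134 CPM in EE control mice. Every EE mouse was below the SH median and 8 of 9 were below every SH mouse, the exception being EE control mouse 4. The difference was small, -0.16 ± 0.03, with an adjusted p of 0.0585 (edgeR). Skil passed with DESeq2, with unstranded counts and when SH control mouse 2, 3, 5 or 6 or EE control mouse 4 or 8 was left out, its adjusted p over the 19 fits with 1 mouse left out being 0.0185 to 0.188.

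Scgn encodes secretagogin, a calcium sensor of particular neuroendocrine cells and interneurons (chr13:23953456-23991214, GRCm38). It was at 1.61, 2.44 and 3.54 CPM in SH and 1.15, 1.45 and 2.15 CPM in EE control mice, and 7 of the 9 EE mice were below every SH mouse. Its log2 value was -0.68 ± 0.15 with an adjusted p of 0.182 (edgeR), and it passed without SH control mouse 6, without EE control mouse 9 and without both mice rich in choroid plexus. Frem3, an extracellular matrix gene, also lay lower, at 2.75, 3.65 and 4.78 CPM in SH and 1.59, 2.29 and 3.23 CPM in EE mice (-0.60 ± 0.18, adjusted p = 0.769, edgeR).

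**Figure D2:**
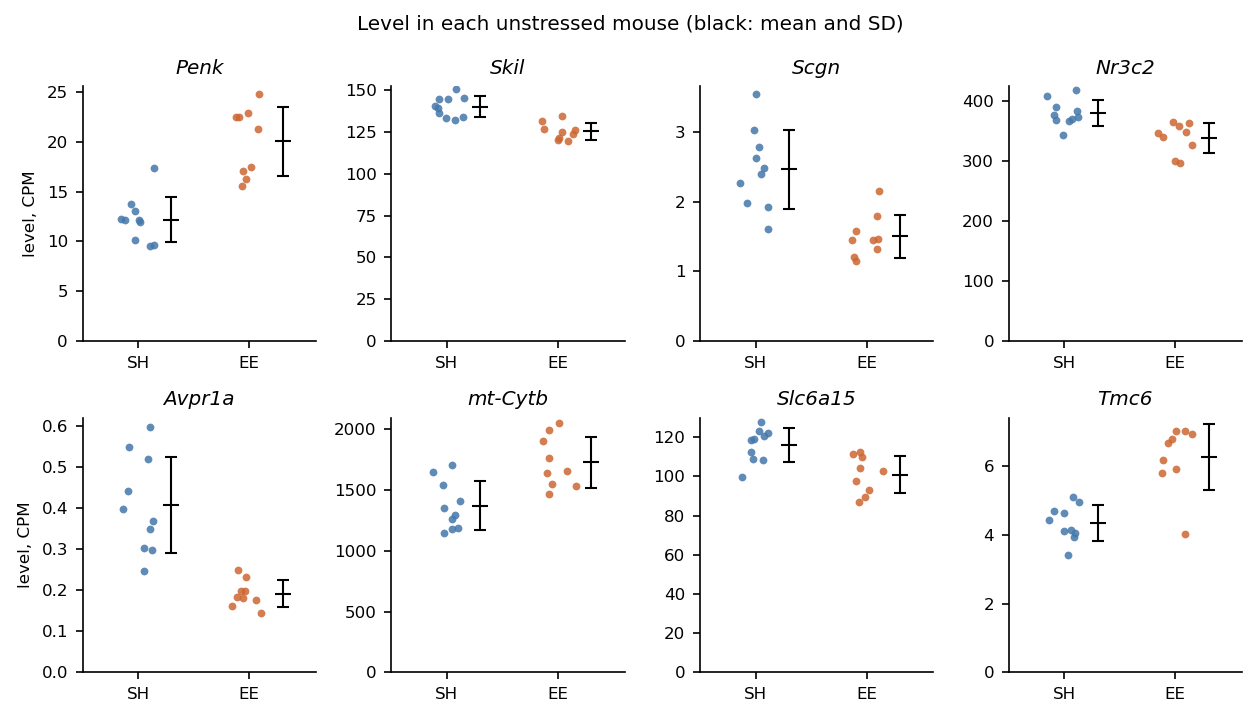
CPM of 8 genes in each unstressed mouse (points), with the group mean and SD in black, SH on the left (n = 10) and EE on the right (n = 9) of each panel. Penk, mt-Cytb and Tmc6 sat higher and Skil, Scgn, Nr3c2, Avpr1a and Slc6a15 lower in EE mice, with overlapping ranges in every panel.

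Single receptors and enzymes for stress hormones lay lower in EE, none past the adjusted threshold, and the lists they belong to did not lie to one side. Nr3c2, the mineralocorticoid receptor, which binds corticosterone at its resting level, was at 343, 374 and 419 CPM in SH and 297, 347 and 365 CPM in EE control mice. All 9 EE mice were below the SH median, and 9 of 10 SH mice were above every EE mouse. The difference was -0.17 ± 0.04 (adjusted p = 0.38, edgeR). Hsd11b1, the enzyme that regenerates corticosterone inside cells, was at 32.0, 33.5 and 40.0 CPM in SH and 24.9, 30.1 and 34.5 CPM in EE mice (-0.20 ± 0.06, adjusted p = 0.769). Avpr1a, a vasopressin receptor, was close to the limit of detection, with 5 to 13 read pairs in an SH and 3 to 9 in an EE control mouse, and its level was 0.249, 0.384 and 0.599 CPM against 0.145, 0.184 and 0.249 CPM (-1.06 ± 0.27, adjusted p = 0.413). Nr3c1, the glucocorticoid receptor, and Fkbp5, its induced co-chaperone, had log2 values of -0.06 ± 0.04 and 0.02 ± 0.07. Of 19 genes for corticosteroid receptors and glucocorticoid targets, Nr3c2 and Hsd11b1 had an unadjusted p below 0.05 (10.5%), both lower, against 2.34% of all genes lower, while 8 lay above 0 and the median was -0.04. Of 6 genes for CRH, oxytocin and vasopressin and their receptors, Avpr1a was the only 1 with p below 0.05 (16.7%, against 5.02% of all genes). In this list 4 lay above 0 and the median was 0.11.

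Chaperones of the endoplasmic reticulum (ER) recurred among the genes lying higher in EE. These proteins fold secreted and membrane proteins, and the unfolded protein response induces them through factors such as ATF6, which acts with NF-Y on the ER stress response element (ERSE), the letters CCAAT and CCACG with any 9 bases between them. Of the 20 heat shock and chaperone genes, 9 (45%) had an unadjusted p below 0.05 and all 9 were higher in EE, against 2.67% of all genes tested, and 19 of 20 had a log2 value above 0. The median was 0.13 and none passed the adjusted test. The ER members with p below 0.05 were Hspa5 (the chaperone BiP), Calr (calreticulin), Hsp90b1 (GRP94), Pdia4 (a disulfide isomerase) and Manf, and the remaining members with p below 0.05 were the cytosolic genes Hspb1, Hspa1b, Hsf1 and Dnajb1. Hspa1b has a near-identical copy in Hspa1a. Read pairs that map to both are left out as multimapping, and its value is uncertain for that reason. Pdia6, another disulfide isomerase, and Sdf2l1, a partner of ER chaperones, joined them from the 15 leading genes, as did Ddit3, the stress-induced transcription factor CHOP, which lies outside the list.

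The ERSE was looked for in both orientations in the 250 bases before the RefSeq start site of each gene (GRCm38.p6). It was present for 3 of the 14 list members found in the RefSeq table, Hspa5, Calr and Hsp90b1, and for Pdia6, and in 35 of 27025 genes (0.13%) overall. The 4 stretches are shown because they carry the element in genes of this group, with its fixed letters, or those of its reverse complement, in capitals. They lie at chr2:34771840-34772089 (Hspa5, plus strand), chr8:84846932-84847181 (Calr, minus), chr10:86705445-86705694 (Hsp90b1, minus) and chr12:17266339-17266588 (Pdia6, plus). For Pdia4, Sdf2l1, Ddit3 and Hspb1 these letters were not in the window.
Hspa5: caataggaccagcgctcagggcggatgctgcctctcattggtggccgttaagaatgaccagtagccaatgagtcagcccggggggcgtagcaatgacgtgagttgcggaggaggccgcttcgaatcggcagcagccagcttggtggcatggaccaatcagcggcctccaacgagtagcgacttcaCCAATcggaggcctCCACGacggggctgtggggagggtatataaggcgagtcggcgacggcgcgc
Calr: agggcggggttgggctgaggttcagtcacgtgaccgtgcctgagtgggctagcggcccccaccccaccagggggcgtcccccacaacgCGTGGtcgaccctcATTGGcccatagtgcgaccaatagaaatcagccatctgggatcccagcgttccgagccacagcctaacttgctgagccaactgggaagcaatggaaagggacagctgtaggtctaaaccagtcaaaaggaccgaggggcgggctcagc
Hsp90b1: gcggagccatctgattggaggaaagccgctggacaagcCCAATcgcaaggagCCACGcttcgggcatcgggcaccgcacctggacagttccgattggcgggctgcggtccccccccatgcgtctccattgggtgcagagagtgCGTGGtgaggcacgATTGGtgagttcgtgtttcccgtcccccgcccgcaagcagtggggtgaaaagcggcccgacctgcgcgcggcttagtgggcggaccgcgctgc
Pdia6: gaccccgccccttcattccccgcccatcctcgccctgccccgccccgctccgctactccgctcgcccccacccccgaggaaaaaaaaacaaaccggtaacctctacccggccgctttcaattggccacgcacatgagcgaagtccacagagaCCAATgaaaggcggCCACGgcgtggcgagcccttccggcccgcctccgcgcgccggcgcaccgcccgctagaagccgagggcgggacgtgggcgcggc
In Hsp90b1 the element occurred in both orientations, beginning 212 and 107 bases before the start site, and in Hspa5 it began 65 bases before it. A match of letters is a description of the sequence and not a measured binding site. The element is known from the induction of ER chaperones, so its presence in such genes was likely beforehand and is no test of enrichment. These are reference letters, the same for both groups, so the search cannot bear on housing. Pdia6 was added to it from the leading genes. The part of the element or of the unfolded protein response in the difference was not tested.

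Levels of these ER genes split the EE control mice. Hspa5 was at 253, 293 and 349 CPM in SH control mice and 260, 355 and 555 CPM in EE control mice (0.35 ± 0.10, adjusted p = 0.698, edgeR). EE control mice 1, 4, 5, 8 and 9 were above every SH mouse, and mice 2, 3, 6 and 7 were within the SH range. The same 5 mice were above every SH mouse for Calr, for Hsp90b1 and for Pdia6. Calr was at 339, 371 and 412 CPM in SH and 366, 417 and 538 CPM in EE mice (0.22 ± 0.07, adjusted p = 0.808). Hsp90b1 was at 317, 350 and 368 CPM in SH and 335, 386 and 485 CPM in EE mice (0.19 ± 0.07, adjusted p = 0.86). Over the 7 ER genes Hspa5, Hsp90b1, Calr, Pdia4, Pdia6, Sdf2l1 and Manf, a set put together after the values were seen, mice 1, 5 and 8 exceeded every SH mouse on all 7, mouse 9 on 5, mouse 4 on 4, and mice 2, 3, 6 and 7 on 0. Mouse 5 was below every SH mouse for Prox1, Calb1 and Dsp, while mouse 8 was the highest EE mouse for Prox1 and Dsp. The library of mouse 8 had the fewest genes detected (23930) of the EE control libraries. It also had the largest share of read pairs on no feature (27.5%). The part of tissue make-up or of the library in the split was not tested.

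The spread inside the EE group was accordingly wide for these genes. The SD of Hspa5 was 104 CPM in EE against 35.7 CPM in SH control mice, and that of Sdf2l1 2.66 against 1.22 CPM. Sdf2l1 was at 4.31, 5.27 and 8.62 CPM in SH and 4.72, 7.48 and 11.4 CPM in EE mice (0.48 ± 0.14, adjusted p = 0.698). Hspb1, a small heat shock protein found in glia and vessels, was at 1.42, 2.30 and 2.77 CPM in SH and 1.99, 2.68 and 6.05 CPM in EE mice (0.52 ± 0.16, adjusted p = 0.769), with mice 5, 1, 8 and 9 again on top. Ddit3 was at 12.6, 14.6 and 16.5 CPM in SH and 14.2, 16.6 and 19.4 CPM in EE mice (0.22 ± 0.05, adjusted p = 0.38), and mice 1, 5, 6, 7, 8 and 9 were above every SH mouse. Penk did not follow this split, since EE control mice 5 and 8 had its lowest and next to lowest level in their group. In choroid plexus level, EE control mouse 8 was at 98.6 CPM summed and mouse 9 at 657 CPM. The fit without both mice rich in choroid plexus was chosen after seeing the data and kept EE control mice 1, 5 and 8. In that fit 10 of the 20 chaperone genes had p below 0.05, against 9 with all mice. The count was 12 without SH control mouse 3 alone and 8 without EE control mouse 9 alone. The 10 thus mixes 2 opposite shifts and cannot tell what choroid plexus tissue contributes. The part of choroid plexus tissue in the split was not tested.

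**Figure D3:**
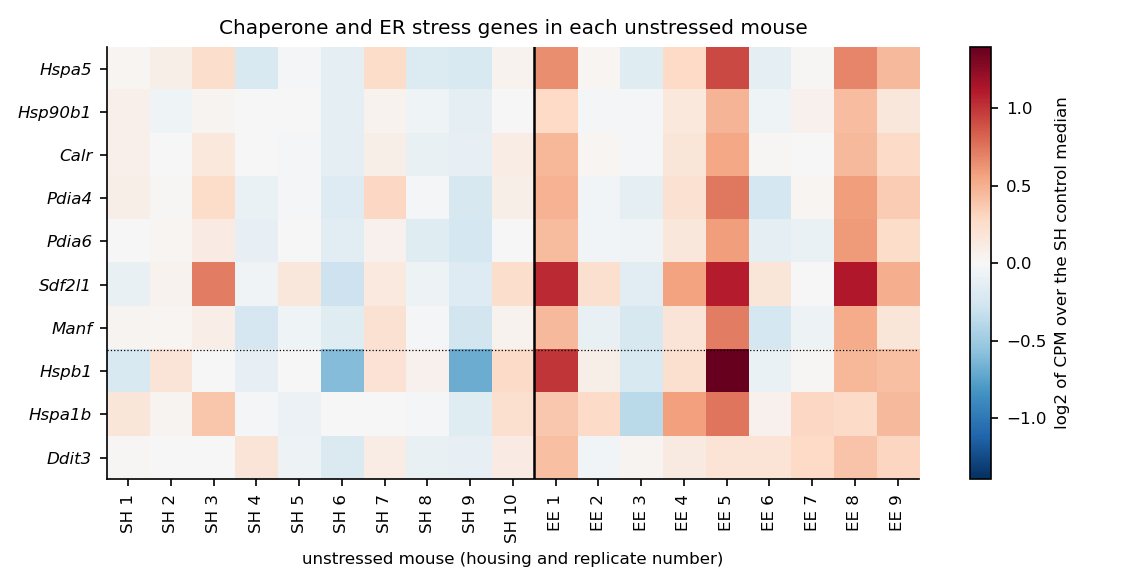
Level of 10 genes (rows) in each unstressed mouse (columns, housing and replicate number) as log2 of CPM over the SH control median, red above and blue below it; the 7 ER genes are above the dotted line. EE mice 1, 5 and 8 are red on all 7 ER genes, while EE mice 2, 3, 6 and 7 are close to the SH mice.

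The same genes were then read in the defeated mice, which share no animal with the control groups. The list was written with earlier results of these data known, so the counts describe these mice and are no independent check. Among EE RES against SH RES mice, 9 of the 20 heat shock and chaperone genes had an unadjusted p below 0.05, all higher in EE, against 8.29% of all genes higher and 7.76% lower, and the median was 0.16. Among EE SUS against SH SUS mice, 8 were higher and 1 lower, against 4.1% and 3.26% of all genes, and the median was 0.11. With each RES mouse left out in turn the count in RES mice was 6 to 15, the 15 without EE RES mouse 6, and with each SUS mouse left out it was 7 to 11 in SUS mice, fits that were added after seeing the data. Hspa5 had a log2 value of 0.28 in RES and 0.20 in SUS mice, and Hspb1 of 0.68 and 0.53. No gene of the list passed the test of a housing difference that differed between control and defeated mice.

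Transcripts of the mitochondrial genome were a further list with a high share of small p-values. All 13 protein genes encoded there had a log2 value above 0, and 11 (84.6%) had an unadjusted p below 0.05, against 51.3% of all genes above 0 and 2.67% higher with p below 0.05. None passed the adjusted test, and the median was 0.31. mt-Cytb, the cytochrome b of complex III, was at 1147, 1321 and 1703 CPM in SH control and 1466, 1655 and 2051 CPM in EE control mice. All 9 EE mice were above the SH median and 4 were above every SH mouse (0.33 ± 0.09, adjusted p = 0.413, edgeR). mt-Nd2, a subunit of complex I, was at 149, 218 and 280 CPM in SH and 216, 266 and 358 CPM in EE mice (0.38 ± 0.13). EE control mice 2, 5 and 6 were above every SH mouse for mt-Cytb, mt-Nd2, mt-Nd4 and mt-Nd5, and mouse 2 was the highest for each. Summed over the 13 genes, SH mice were at 14338 to 18469 CPM and EE mice at 15697 to 20850 CPM.

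The count of mitochondrial genes with p below 0.05 was less steady than their direction. It was 7 without SH control mouse 1 and 5 without EE control mouse 2, and 8 to 13 in every other fit with 1 mouse left out, while all 13 stayed above 0. Nuclear genes of oxidative phosphorylation leaned slightly to the other side, with 13 of 78 above 0, against 51.3% of all genes, and a median of -0.03. Of these, 1 gene was higher and 1 lower with p below 0.05 (2.56%, against 5.02% of all genes). Cytosolic ribosomal protein genes lay similarly, with 9 of 81 above 0 and a median of -0.03. Mitochondrial transcripts also differ with tissue handling, reads of them can fall on nuclear copies, and the part of either in this difference was not tested. In RES mice the mitochondrial median was 0.29 with 5 genes higher at p below 0.05, against 8.29% of all genes. That count was 2 without SH RES mouse 6 or 7 or EE RES mouse 4, 3 without SH RES mouse 2 or 4 or EE RES mouse 3, and 8 without SH RES mouse 3. In SUS mice the mitochondrial median was 0.02 with 0 genes at p below 0.05, against 4.1% of all genes higher.

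Of 35 activity-dependent immediate early genes 1 (2.86%) had an unadjusted p below 0.05, against 5.02% of all genes. It was Gadd45g, which was lower (-0.16 ± 0.08, adjusted p = 0.976, edgeR), and the median of the list was 0.02. Fos was at 1.94, 3.77 and 6.98 CPM in SH and 1.48, 3.53 and 5.10 CPM in EE control mice, and Arc at 32.9, 46.4 and 78.9 CPM in SH and 34.3, 40.4 and 58.1 CPM in EE mice. Their log2 values were -0.33 ± 0.20 and -0.14 ± 0.11, and those of Npas4 and Egr1 were 0.07 ± 0.24 and 0.08 ± 0.15. The groups overlapped almost fully on each of these genes, whose products follow recent neuronal firing.

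Of 11 neurotrophin ligands and receptors none had an unadjusted p below 0.05, and all lay between -0.08 and 0.09. Bdnf, the ligand best known in enrichment, was at 53.5, 65.1 and 83.5 CPM in SH and 44.2, 62.9 and 76.0 CPM in EE control mice (-0.05 ± 0.08). Its receptor Ntrk2 was at 426, 460 and 491 CPM in SH and 419, 449 and 543 CPM in EE mice (0.00 ± 0.04). Among 19 IGF and VEGF genes 2 (10.5%) had an unadjusted p below 0.05 and 15 lay above 0, against 5.02% and 51.3% of all genes. Igfbp6, which binds IGF2, was at 2.53, 3.54 and 6.404 CPM in SH and 3.97, 5.72 and 6.62 CPM in EE mice (0.51 ± 0.15, adjusted p = 0.698), and Flt1, a VEGF receptor of endothelium, had a log2 value of 0.22 ± 0.09 (adjusted p = 0.929). The ligands Vegfa (0.16 ± 0.10) and Igf1 (-0.02 ± 0.09) missed the unadjusted threshold as well.

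Markers of newborn neurons lay on both sides of 0. Of 17 immature granule neuron genes 1 (5.88%) had an unadjusted p below 0.05, against 5.02% of all genes, and 9 lay above 0. The median was 0.00. Dcx, the microtubule protein of migrating young neurons, was at 12.01, 15.01 and 19.04 CPM in SH and 14.2, 16.4 and 18.3 CPM in EE control mice (0.11 ± 0.07, adjusted p = 0.979, edgeR). Igfbpl1, expressed in neuronal precursors, was at 2.13, 2.36 and 3.06 CPM in SH and 1.85, 3.03 and 4.91 CPM in EE mice (0.47 ± 0.17, adjusted p = 0.86). Of 23 progenitor and proliferation genes 14 lay above 0, with Cenpf, a kinetochore protein, at 0.29 ± 0.12 and Mki67, the Ki-67 antigen of cycling cells, at 0.16 ± 0.14. Mki67 ranged from 1.66 to 4.03 CPM in SH and from 1.91 to 3.80 CPM in EE mice, so a difference of that size could not be separated from the spread of the mice.

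Lists of receptor and synapse genes had medians near 0, with single members farther out. Median log2 values were -0.02 for 10 AMPA and NMDA receptor subunits and 0.00 for 13 GABA-A receptor subunits. They were -0.01 for 31 synaptic vesicle release genes and -0.01 for 78 potassium channel genes. In the same order 0, 0, 1 (3.23%) and 5 (6.41%) members had an unadjusted p below 0.05, against 5.02% of all genes. The log2 values ranged from -0.13 to 0.03, from -0.16 to 0.18, from -0.11 to 0.26 and from -0.85 to 0.50 in these lists. Slc6a15, a neuronal transporter of neutral amino acids that is expressed in the hippocampus, which is in none of these lists, was at 99.9, 119 and 128 CPM in SH and 87.1, 103 and 113 CPM in EE control mice (-0.20 ± 0.05, adjusted p = 0.38, edgeR). All 9 EE mice were below its SH median.

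Most microglial, vascular and myelin markers lay slightly above 0. Of 17 microglia genes 15 lay above 0, against 51.3% of all genes, with a median of 0.05. Tyrobp, an adaptor of microglial receptors, was the only 1 with p below 0.05 (5.88%, against 5.02% of all genes). Its log2 value was 0.19 ± 0.09 (adjusted p = 0.976, edgeR). Cx3cr1, the fractalkine receptor of microglia, was at 47.1, 52.3 and 56.4 CPM in SH and 51.5, 54.5 and 57.5 CPM in EE control mice. Of 19 endothelial and pericyte genes 16 lay above 0, with a median of 0.09, including Pecam1, an adhesion molecule of endothelium, at 0.17 ± 0.08. Of 18 myelin genes 15 lay above 0 with a median of 0.08, and none had p below 0.05. Mbp, a main myelin protein, was at 410, 536 and 722 CPM in SH and 419, 487 and 764 CPM in EE mice, and Gfap of astrocytes at 253, 266 and 321 CPM in SH and 239, 283 and 344 CPM in EE mice. Blood was alike in both, with Hbb-bs, a globin of red cells, at 49.4 CPM in the median SH and 48.2 CPM in the median EE mouse.

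Markers of neighbouring regions lay on both sides of 0. All 11 thalamic genes had a log2 value below 0, with a median of -0.30, and none had p below 0.05. Prkcd, a protein kinase C of thalamic neurons, ranged from 10.6 to 76.9 CPM in SH and from 12.2 to 42.2 CPM in EE control mice. The 13 choroid plexus genes had a median of -0.46 with 1 above 0, and Ttr, the transthyretin made by choroid plexus, had a log2 value of -1.20 ± 1.31 that became 3.16 without SH control mouse 3. Summed over that list, the median mouse was at 119.7 CPM in SH and 118.5 CPM in EE control mice. Of 9 CA1 genes 8 lay above 0 (median 0.13), and of 9 hilar mossy cell genes 8 did (median 0.19). Of 13 CA3 and CA2 genes 3 had an unadjusted p below 0.05, all lower in EE, against 2.34% of all genes lower: Iyd (-0.40 ± 0.13), Rgs14, a signalling regulator of CA2 neurons (-0.16 ± 0.07), and Cacng5, an AMPA receptor auxiliary subunit (-0.42 ± 0.19). The part of dissection in these values was not tested.

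**Figure D4:**
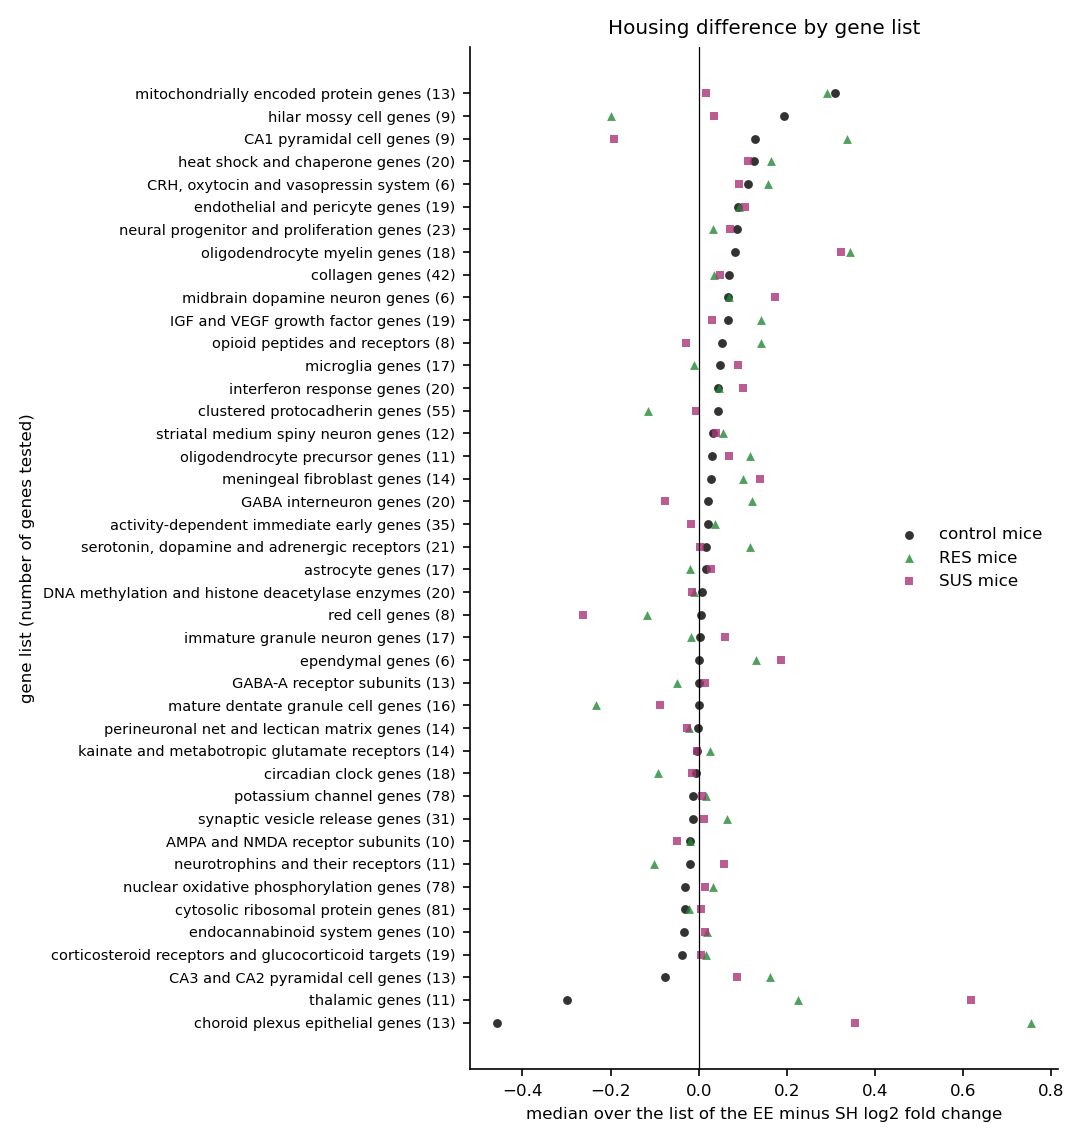
Median over each gene list of the EE minus SH log2 fold change (x axis) in control (black circles), RES (green triangles) and SUS mice (purple squares), for the lists with at least 5 genes tested, whose number is given in parentheses. In control mice 35 of 42 lists lay within 0.1 of 0, and choroid plexus and thalamic genes were at -0.46 and -0.30.

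Whether the housing difference depended on stress was addressed by the test of the control difference minus the mean of the RES and SUS differences. No gene passed it with edgeR, limma-voom or DESeq2, the smallest adjusted p being 0.756 with edgeR (0% of genes called), and 1183 genes (6.47%) had an unadjusted p below 0.05 with edgeR. The 5 named genes with the smallest p were Ccdc74a, Slc5a11, Fbxl14, Rnf39 and Fbxo45. Ccdc74a had log2 values of -0.17 in control, 0.12 in RES and 0.05 in SUS mice, and Rnf39 of 0.26, -0.40 and -0.26. Slc5a11, an inositol transporter that myelinating cells express, had values of -0.31, 0.95 and 0.74. Its level was low, at a mean of 0.157 CPM per kilobase of exon in SH and 0.123 in EE control mice. With 1 control mouse left out, its control value ran from -0.41 to -0.20. Penk had values of 0.72, 0.39 and 0.51 and an unadjusted p of 0.034 (edgeR) for the difference between control and defeated mice, which did not pass adjustment. Penk also stood out by its p in control mice, and such a choice favours a larger control value.

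The 30 leading genes of the unstressed mice mostly kept their direction in defeated mice. Of the 15 higher in EE control mice, 14 lay above 0 in RES and 15 in SUS mice, Ccdc158 in RES mice being the exception. All 15 lower in EE control mice lay below 0 in RES and in SUS mice. With 1 defeated mouse left out, at most 2 of either 15 lay on the opposite side in RES mice and at most 1 in SUS mice. Of all genes tested, 51.6% lay above 0 in RES and 50.5% in SUS mice. The genes at the study criterion kept their direction less often. Of the 156 higher ones, 103 (66.0%) did so in RES and 93 (59.6%) in SUS mice. Of the 48 lower ones, 34 (70.8%) did so in RES and 31 (64.6%) in SUS mice. Sizes were mostly smaller: the median of the 15 higher genes was 0.43 in control, 0.09 in RES and 0.15 in SUS mice, and that of the 15 lower genes -0.16, -0.14 and -0.06. The 30 genes were picked by their p in control mice, which favours larger sizes there. Their smaller sizes in defeated mice thus cannot tell whether defeat weakened the difference.

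Single genes held their size to different degrees. Slc6a15 was at -0.20, -0.19 and -0.18 in control, RES and SUS mice, Nr3c2 at -0.17, -0.14 and -0.14, and Skil at -0.16, -0.10 and -0.13. Tmc6, a transmembrane channel-like gene, was at 3.42, 4.28 and 5.10 CPM in SH control and 4.02, 6.67 and 7.03 CPM in EE control mice, where 8 of 9 EE mice were above every SH mouse (0.53 ± 0.13, adjusted p = 0.38, edgeR), and its log2 value was 0.04 in RES and 0.39 in SUS mice. The RES value rested on SH RES mouse 5, at 11.8 CPM against at most 5.26 CPM in the other SH RES mice, and was 0.32 without it. Rspo1, a secreted enhancer of Wnt signalling, was at 1.01, 1.25 and 1.80 CPM in SH and 0.547, 0.826 and 1.26 CPM in EE control mice (-0.56 ± 0.14, adjusted p = 0.38), with log2 values of -0.61 in RES and -0.05 in SUS mice, the last being 0.01 without EE SUS mouse 2. Ppl, a plakin of cell junctions (0.50 ± 0.13), and Mettl24, a putative methyltransferase (0.46 ± 0.13), were at 0.11 and 0.05 in RES mice, and at 0.30 and 0.12 without SH RES mouse 5, which had the highest Ppl level of the SH RES mice (9.28 CPM, the next 5.56 CPM).

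The other leading genes were mostly abundant ones with small differences, none past the adjusted threshold. Pik3r1, the regulatory subunit of PI3-kinase, was at 83.2, 104 and 109 CPM in SH and 105, 113 and 122 CPM in EE control mice, with 7 of 9 EE mice above every SH mouse (0.17 ± 0.05). Rab39, a vesicle traffic GTPase (0.43 ± 0.12), Hjurp, a chaperone of the centromeric histone (0.13 ± 0.04), and Arl10, an ARF-like GTPase (0.16 ± 0.05), lay higher. Herc3, a ubiquitin ligase (-0.11 ± 0.03), Coro1a, an actin regulator of immune cells (-0.16 ± 0.04), Sumo3, a ubiquitin-like modifier (-0.11 ± 0.03), Eif4b, a translation initiation factor (-0.10 ± 0.03), Stard7, a mitochondrial lipid carrier (-0.10 ± 0.02), Tbc1d24, a gene of vesicle traffic (-0.11 ± 0.03), Zfp239, a zinc finger gene (-0.12 ± 0.04), and Asb18 (-0.21 ± 0.06) lay lower. All 9 EE control mice sat beyond the SH median on the side of the difference for each of these genes except Coro1a, with 7 of 9.

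**Figure D5:**
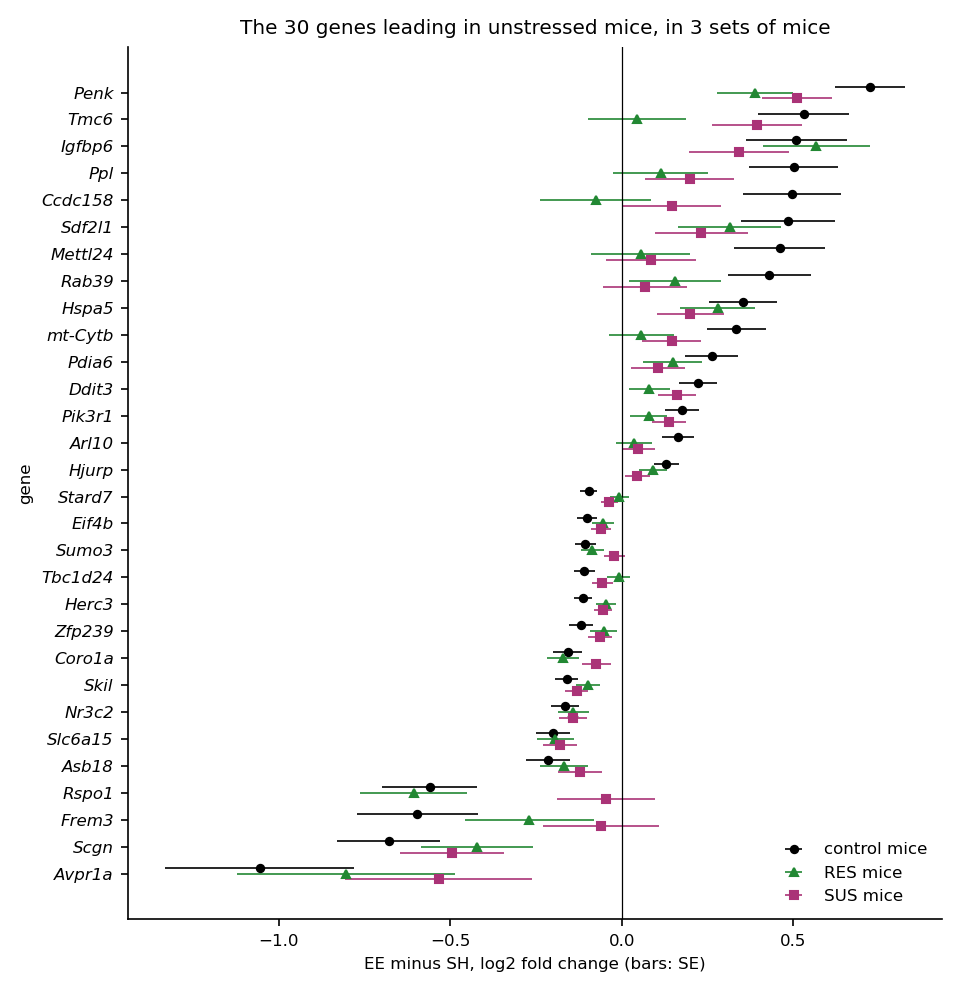
EE minus SH log2 fold change (x axis, bars are SE) of the 15 leading genes in each direction in control (black circles), RES (green triangles) and SUS mice (purple squares). Of the 30 genes 29 kept the sign of the control mice in RES mice and all 30 kept it in SUS mice, most at a smaller size. The genes were picked by their p in control mice, which favours larger sizes there.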

How the data were processed

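Ventral dentate gyrus RNA of 19 unstressed mice was compared by housing. The authors aligned paired reads to GRCm38 with STAR (Picard is also named in the submitters' processing notes) and deposited gene tables of raw counts, made without regard to strand and on either strand. Counts on the reverse strand were used, since 3.60 to 3.91% of strand-assigned pairs in the control libraries were on the forward strand. Rows naming no gene (unmapped 13.9 to 18.7%, multimapping 8.71 to 11.0%, no feature 19.9 to 27.5% and ambiguous 0.841 to 1.02% of read pairs) were left out. Names came from GENCODE M21 (44671 of 45318 identifiers).

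Both runs of mouse 9 of the EE control group were added together. Genes were filtered with filterByExpr, scaled by TMM and fitted over the 6 groups (54 mice) with edgeR 4.0.16. Alternatives were limma-voom 3.58.1, DESeq2 1.42.0 and those of the closing section, in R 4.3.3. Scripts were tested on simulated data. Lists and groups were chosen with earlier results of these data known. Named were the 15 genes of smallest p in each direction, up to 4 per list, 25 set genes and 5 for the control against defeated difference. Hsf1, Dnajb1, Hsp90b1, Pdia4 and Manf were added after their values were seen.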

Additional observations from a re-analysis of the deposited data

Results flagged for a closer look

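In 160 gene and group combinations of the named genes, 12 single mice stood apart from their group by Dixon's test, where chance flags about 1 in 20. Ttr was far above the rest in SH control mouse 3 (872 CPM, next mouse 33.2) and in EE control mouse 9 (292 CPM, next 31.5), the mice with the most choroid plexus RNA, and Sdf2l1 was highest in the same SH control mouse 3 (8.62 CPM, next 6.23). SH control mouse 10 stood apart upwards for Arc (78.9 CPM, next 57.3), Mbp (722 CPM, next 571), Iyd (7.61 CPM, next 5.87) and Rspo1 (1.80 CPM, next 1.38). EE control mouse 5 stood apart upwards for Dnajb1 (48.7 CPM, next 42.1) and downwards for Tmc6 (4.02 CPM, next 5.79) and Rgs14 (51.5 CPM, next 64.5). EE control mouse 2 was high for Ntrk2 (543 CPM, next 472) and SH control mouse 4 low for Pik3r1 (83.2 CPM, next 95.8).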

How the results depend on the processing

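Penk was called in every fit, while the count of called genes moved from 1 to 2 with unstranded counts (Skil added), with DESeq2 (Skil), with the 19 control mice alone and a replicate block (mt-Cytb) and without both mice rich in choroid plexus (Scgn), an alternative chosen after seeing the data. It was 1 to 3 with 1 mouse left out, SH control mouse 6 giving 3. With the replicate block in the model over 6 groups it was 1. Of 9 pairs of same-numbered mice, 2 deviated together with a correlation above 0.1, and 3 of 9 EE mice matched their own number best. With so few pairs this does not settle whether replicate numbers mark a shared batch. The 204 genes at the study criterion became 854 with no filter on low counts, 83 with a stricter one, 133 with the 19 control mice alone, 126 with the block added to that, and 1 at an adjusted p below 0.05 with no fold limit, and were 187 to 246 with 1 mouse left out. The count of genes whose housing difference depended on defeat was 0 throughout. Chaperone genes higher at an unadjusted p below 0.05 numbered 6 to 12 and mitochondrial ones 5 to 13 with 1 mouse left out. In defeated mice, with each RES or SUS mouse left out (added after seeing the data), chaperone counts were 6 to 15 in RES and 7 to 11 in SUS mice. The log2 fold change of Ttr turned to 1.498 with the replicate block over 6 groups, 0.45 with the block in the 19 mice, 0.48 without both mice rich in choroid plexus, 1.404 with limma-voom, 1.54 with sample quality weights and 0.45 with DESeq2, and Ntrk2 to 0.0214 without both mice. With 1 mouse left out, log2 values that crossed 0 ran from -3.89 to 3.16 for Ttr, -0.0402 to 0.0097 for Ntrk2, -0.009 to 0.0513 for Fkbp5, -0.081 to 0.0065 for Bdnf, -0.039 to 0.0022 for Igf1, -0.0134 to 0.14 for Egr1, -0.0427 to 0.207 for Npas4 and -0.0403 to 0.116 for Prox1. The cause was not tested. The depth limits genes such as Avpr1a, at 13 read pairs or fewer per mouse.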
